A study of Arabidopsis thaliana with 11 samples.

Results

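The LHCB1, LHCB2 and LHCB3 genes of Arabidopsis thaliana encode the proteins of the major light-harvesting complex of photosystem II. They comprise 9 genes, 5 copies of LHCB1, 3 copies of LHCB2 and 1 LHCB3. They were chosen by locus identifier from the 28094 loci counted in the study. The members were LHCB1.1 (AT1G29920), LHCB1.2 (AT1G29910) and LHCB1.3 (AT1G29930) on chromosome 1, and LHCB1.4 (AT2G34430) and LHCB1.5 (AT2G34420) on chromosome 2. LHCB2.1 (AT2G05100) and LHCB2.2 (AT2G05070) lie on chromosome 2, LHCB2.3 (AT3G27690) on chromosome 3 and LHCB3 (AT5G54270) on chromosome 5. All 9 passed the filter on low counts, as did 24043 of the 28094 loci.

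Light-harvesting complex II is a trimer in the thylakoid membrane that binds chlorophyll a, chlorophyll b and carotenoids and passes absorbed energy to photosystem II. LHCB1 and LHCB2 make up most trimers, LHCB2 is the form whose phosphorylation moves trimers towards photosystem I in state transitions, and LHCB3 sits in the trimers bound at a moderate affinity and lacks the phosphorylated residue. The genes are nuclear, their proteins are imported into chloroplasts, and in leaves their transcripts are among the most abundant and are known to follow light and the circadian clock.

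Flower buds and leaves of wild-type plants were compared by sequencing of polyA-selected RNA. All plants grew untreated in soil in a greenhouse and were sampled when the first flower had opened, which the labels call stage 6.0, so every group shares that genotype, stage and growth. The 6 samples were 2 of flower buds, 2 of leaves read on a GA II sequencer (leaf 3 and 4) and 2 of leaves read on a HiSeq2000 (leaf 1 and 2). The flower buds were also read on the HiSeq2000. The 4 HiSeq2000 samples each had a HiSeq run and a multiplex run, and leaf 1 had a further multiplex library, 1b, so there were 11 libraries. Nothing in the labels ties a numbered sample to its own plants, so p-values here describe only how far these samples varied, and that variation could be technical.

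The copies are so alike that read assignment between them is uncertain. In coding sequences from RefSeq (assembly TAIR10.1, matched by locus identifier), the LHCB1 copies were 86.7% to 96.4% identical over 804 aligned positions, of which 140 differed between any copies. LHCB1.1 and LHCB1.2 encode identical proteins, and LHCB1.3 differs from them at 1 residue. The LHCB2 copies were 84.4% to 96.6% identical in coding sequence, and LHCB3 was 64.5% to 68.3% identical to the LHCB1 and LHCB2 proteins. The coding stretch of 75 bases where the 5 LHCB1 copies differ most shows where they are easiest to tell apart. The read length is not given, so 75 bases is only an example. It covers coding bases 187 to 261 of LHCB1.1, LHCB1.2 and LHCB1.3, 184 to 258 of LHCB1.4 and 181 to 255 of LHCB1.5, counted from the A of the start codon. Capitals mark the 19 positions where any copy differs from another.
LHCB1.1: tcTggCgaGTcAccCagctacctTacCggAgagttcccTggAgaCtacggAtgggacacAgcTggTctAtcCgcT
LHCB1.2: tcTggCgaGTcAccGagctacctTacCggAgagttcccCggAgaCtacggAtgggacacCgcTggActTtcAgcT
LHCB1.3: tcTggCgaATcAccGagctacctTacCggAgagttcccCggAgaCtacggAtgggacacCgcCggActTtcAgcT
LHCB1.4: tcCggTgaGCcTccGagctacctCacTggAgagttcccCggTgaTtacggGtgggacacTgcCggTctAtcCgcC
LHCB1.5: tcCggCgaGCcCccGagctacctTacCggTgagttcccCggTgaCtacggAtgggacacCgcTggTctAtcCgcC

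The stretch of 75 bases where the copies differ least, at coding bases 616 to 690 of LHCB1.1, LHCB1.2 and LHCB1.3, holds only 4 such positions. It is shown because reads from it carry little information on the copy. The same stretch is at 613 to 687 in LHCB1.4 and at 610 to 684 in LHCB1.5.
LHCB1.1: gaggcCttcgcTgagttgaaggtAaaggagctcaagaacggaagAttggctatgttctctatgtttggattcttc
LHCB1.2: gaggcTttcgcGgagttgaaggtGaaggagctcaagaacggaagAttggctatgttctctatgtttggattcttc
LHCB1.3: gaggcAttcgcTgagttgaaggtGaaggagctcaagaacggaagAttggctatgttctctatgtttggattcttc
LHCB1.4: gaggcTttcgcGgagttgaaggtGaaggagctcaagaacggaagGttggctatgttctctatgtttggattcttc
LHCB1.5: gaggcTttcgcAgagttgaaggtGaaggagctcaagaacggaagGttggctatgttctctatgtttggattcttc

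Of all 75-base windows of the coding sequence, 17.7% in LHCB1.1, 5.75% in LHCB1.2, 11.9% in LHCB1.3, 12.4% in LHCB1.4 and 12.4% in LHCB1.5 also occurred in another member. LHCB2.1 and LHCB2.2 shared 28.2% of theirs with each other, and LHCB2.3 and LHCB3 shared 0%. The shares depend on the window. For LHCB1.1 they were 34.3% at 50 bases and 7.66% at 100 bases, and for LHCB2.1 and LHCB2.2 they were 41.1% and 18.5%. The counted lengths exceeded the coding lengths, and sequence outside the coding part was not compared. Each LHCB1 copy shared most with a copy next to it in gene order. LHCB1.2, LHCB1.1 and LHCB1.3 are neighbours with 0 protein-coding genes between them, as are LHCB1.5 and LHCB1.4, and LHCB2.2 and LHCB2.1. Of the 140 differing positions, LHCB1.4 alone stood apart at 33, and LHCB1.4 and LHCB1.5 together carried a base against that of the other three at 40. How reads that fit several copies were counted is not given in the sources used here, so values of single LHCB1 copies, and of LHCB2.1 and LHCB2.2, are uncertain, while sums over a family, LHCB2.3 and LHCB3 are less affected.

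The samples summed over runs held 218477506 and 217267500 counted read pairs in flower bud 1 and 2, 35302492 and 37682650 in leaf 3 and 4, and 271060494 and 225332585 in leaf 1 and 2. The tissue labels were checked on marker genes. The 5 flower markers (AP1, AP3, PI, AG and SEP3) summed to 674 to 815 CPM (read pairs per 1000000 counted pairs after scaling of the libraries) in flower buds, against 1.34 to 1.78 CPM in leaf 3 and 4, a range that also held leaf 1 and 2. The 4 anther and pollen markers summed to 1497 to 2766 CPM in flower buds and to at most 0.430 CPM in leaves. AP1 and AP3, and the anther and pollen markers EXL6 and LTP12, had 0 pairs in leaf 3 and 4. The 3 markers of green mesophyll (RCA, RBCS1A and CA1) summed to 5140 to 8265 CPM in flower buds, 36114 to 36320 CPM in leaf 3 and 4, and 24048 to 41814 CPM in leaf 1 and 2. The flower buds thus lay below all leaves for the green mesophyll sum. They also did for the companion cell marker SUC2, with 40.6 to 90.5 CPM in flower buds, 291 to 335 CPM in leaf 3 and 4, and 321 to 399 CPM in leaf 1 and 2. For the epidermis marker ATML1 and the guard cell marker KAT1 they lay above leaf 1 and 2 and below leaf 3 and 4. ATML1 had 95.6 to 106.6 CPM in flower buds, 107.2 to 112.9 CPM in leaf 3 and 4, and 43.3 to 61.7 CPM in leaf 1 and 2. KAT1 had 19.0 to 20.5 CPM, 34.8 to 39.6 CPM and 14.9 to 15.2 CPM in the same order. The 3 markers of dividing cells and meristem summed to 66.7 to 68.0 CPM in flower buds, 1.63 to 1.91 CPM in leaf 3 and 4, and 0.200 to 0.395 CPM in leaf 1 and 2, with WUS and STM at 0 pairs in leaf 3 and 4. The part of these differences in the results was not tested.

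Together the 9 members took 1.11% and 1.32% of the counted pairs of flower bud 1 and 2, 8.34% and 8.25% of those of leaf 3 and 4, and 5.28% and 1.82% of those of leaf 1 and 2. In CPM their sum was 7856 and 9914 in flower buds, 104067 and 104305 in leaf 3 and 4, and 61452 and 18691 in leaf 1 and 2. Leaf 2 was the lowest leaf sample on both scales and lay above both flower buds. In bulk tissue, fewer green cells and less RNA per cell cannot be told apart. Between genes, levels are compared as CPM per kb, the CPM divided by the length counted on. On that scale LHCB1.3 was the highest member in 5 of 6 samples, and LHCB1.5 was the highest in leaf 2. LHCB1.4 was the lowest member in 4 of 6 samples, and LHCB2.3 was the lowest in leaf 3 and 4. The highest member stood 233-fold and 141-fold above the lowest in flower bud 1 and 2, 12.2-fold and 17.7-fold in leaf 3 and 4, and 22.2-fold and 134-fold in leaf 1 and 2.

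**Figure D1:**
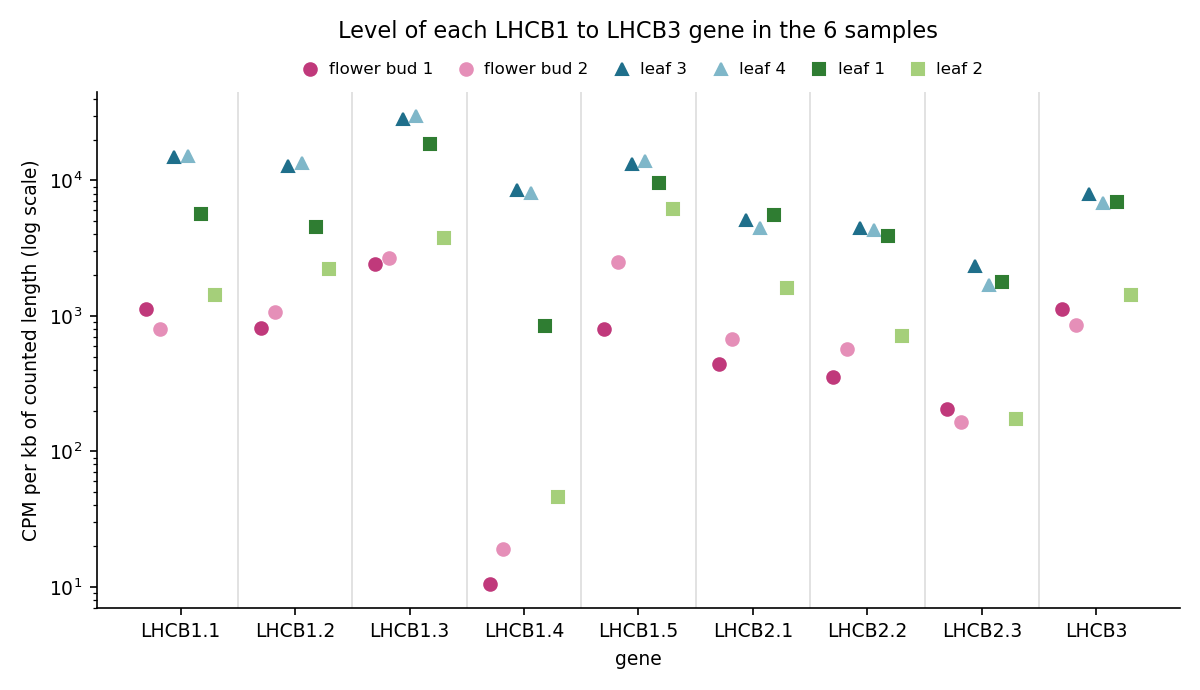
Level of each gene in CPM per kb of counted length (vertical log axis) in flower bud 1 and 2 (circles), leaf 3 and 4 (triangles) and leaf 1 and 2 (squares). Flower buds lie below both leaf 1 and 2 for every gene but LHCB2.3, and LHCB1.4 spans 10.4 to 8474 CPM per kb. Flower buds also lay apart from leaf 1 and 2, in either direction, for 26 of 30 other genes of light harvesting (not drawn). The share over all loci was not counted.

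Among the LHCB1 copies, LHCB1.3 had 2427 and 2691 CPM per kb in flower bud 1 and 2, 28426 and 29966 CPM per kb in leaf 3 and 4, and 18674 and 3775 CPM per kb in leaf 1 and 2. LHCB1.5 had 799 and 2484 CPM per kb in flower buds, 13172 and 13836 CPM per kb in leaf 3 and 4, and 9622 and 6153 CPM per kb in leaf 1 and 2. For both copies the flower buds lay below, and leaf 3 and 4 above, each of leaf 1 and 2. The flower buds nearly coincided for LHCB1.3, while LHCB1.5 in flower bud 1 reached only 0.321 of its level in flower bud 2. LHCB1.1 had 1118 and 794 CPM per kb in flower buds, 14857 and 15186 CPM per kb in leaf 3 and 4, and 5644 and 1430 CPM per kb in leaf 1 and 2. LHCB1.2 had 814 and 1073 CPM per kb in flower buds, 12811 and 13473 CPM per kb in leaf 3 and 4, and 4542 and 2225 CPM per kb in leaf 1 and 2. These copies had the same order of groups, without overlap, and of the pair LHCB1.1 varied more between leaf 1 and 2.

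LHCB1.4 had the widest range of the 9 genes. It had 10.4 and 19.1 CPM per kb in flower bud 1 and 2, 8474 and 8017 CPM per kb in leaf 3 and 4, and 840.2 and 45.8 CPM per kb in leaf 1 and 2. Its highest sample was 814-fold above its lowest, while the other 8 genes spanned 9.33-fold (LHCB3) to 19.1-fold (LHCB1.1). Leaf 3 and 4 were far above all other samples for this copy, and leaf 2 lay closer to the flower buds than to leaf 1. The flower bud values rested on 3242 and 5574 read pairs, against 241601 and 240963 in leaf 3 and 4 and 197143 and 10128 in leaf 1 and 2, so counting error is small beside these differences.

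Of the LHCB2 copies, LHCB2.1 had 444 and 675 CPM per kb in flower buds, 5128 and 4481 CPM per kb in leaf 3 and 4, and 5553 and 1619 CPM per kb in leaf 1 and 2. LHCB2.2 had 353 and 565 CPM per kb in flower buds, 4425 and 4322 CPM per kb in leaf 3 and 4, and 3899 and 715 CPM per kb in leaf 1 and 2. LHCB2.1 exceeded LHCB2.2 in 6 of 6 samples. For LHCB2.1 leaf 1 was the highest sample, so leaf 3 and 4 overlapped leaf 1 and 2, whereas for LHCB2.2 leaf 3 and 4 lay just above leaf 1. LHCB2.3 had 206 and 164 CPM per kb in flower buds, 2333 and 1690.3 CPM per kb in leaf 3 and 4, and 1779 and 172 CPM per kb in leaf 1 and 2. Leaf 2 fell between the flower buds for LHCB2.3, the only member whose flower buds overlapped leaf 1 and 2. Flower buds were also apart from leaf 1 and 2, in either direction, for 26 of 30 other genes of light harvesting and 18 of 19 markers. The share over all loci was not counted, so the members have no background to be set against here.

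LHCB3, the single-copy trimer subunit, had 1123 and 849.6 CPM per kb in flower buds, 7926 and 6836 CPM per kb in leaf 3 and 4, and 6917 and 1425 CPM per kb in leaf 1 and 2. The flower buds lay below all leaves, and leaf 1 lay between leaf 3 and 4. LHCB3 was the second highest member of flower bud 1 but sixth in leaf 3, leaf 4 and leaf 2. Summed over copies, LHCB2 stood at 0.893 of the LHCB3 level per kb in flower bud 1 and at 1.65 of it in flower bud 2, against 1.4997 and 1.53 in leaf 3 and 4 and 1.62 and 1.76 in leaf 1 and 2. Summed LHCB1 stood at 5.16 and 5.03 of summed LHCB2 per kb in flower buds, 6.54 and 7.67 in leaf 3 and 4, and 3.50 and 5.44 in leaf 1 and 2. The ratio of LHCB1 to LHCB2 was thus highest in leaf 3 and 4 and lowest in leaf 1, with flower buds and leaf 2 between them.

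The make-up of the LHCB1 family differed between samples of 1 tissue. LHCB1.3 made up 45.9% and 37.7% of LHCB1 pairs in flower bud 1 and 2, 36.0% and 36.6% in leaf 3 and 4, and 46.8% and 27.4% in leaf 1 and 2. LHCB1.5 made up 15.1% and 34.8% in flower buds, 16.7% and 16.9% in leaf 3 and 4, and 24.1% and 44.8% in leaf 1 and 2. LHCB1.1 made up 23.8% and 12.5% in flower buds, 21.2% and 20.9% in leaf 3 and 4, and 15.9% and 11.7% in leaf 1 and 2. Flower bud 2 and leaf 2 thus held more LHCB1.5 and less LHCB1.3 and LHCB1.1 than flower bud 1 and leaf 1, and leaf 3 and 4 were nearly alike. LHCB1.2 varied least, at 11.1% to 16.1% in the 6 samples.

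LHCB1.4 made up 0.190% (95% exact binomial interval 0.184% to 0.197%) and 0.258% (0.251% to 0.265%) of LHCB1 pairs in flower bud 1 and 2. It made up 10.4% (10.3% to 10.4%) and 9.46% (9.42% to 9.496%) in leaf 3 and 4. In leaf 1 and 2 it made up 2.03% (2.02% to 2.04%) and 0.321% (0.315% to 0.327%). The LHCB1.4 shares of leaf 3 and 4 thus lay above those of all other samples. Intervals cover counting error only, and for LHCB1 they were at most 0.150 percentage points wide.

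Within LHCB2, LHCB2.3 made up 18.4% and 10.3% of pairs in flower bud 1 and 2, 17.6% and 14.4% in leaf 3 and 4, and 14.1% and 6.03% in leaf 1 and 2. LHCB2.1 made up 46.2% and 49.6% in flower buds, 45.0% and 44.3% in leaf 3 and 4, and 51.2% and 65.9% in leaf 1 and 2. Leaf 2 stood at both ends, with the highest share of LHCB2.1 and the lowest of LHCB2.3. Between the HiSeq and multiplex runs of 1 sample, no share of an LHCB1 or LHCB2 copy moved by more than 0.215 percentage points. Between the 2 multiplex libraries of leaf 1 the largest gap was 0.967 percentage points, for LHCB1.5.

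**Figure D2:**
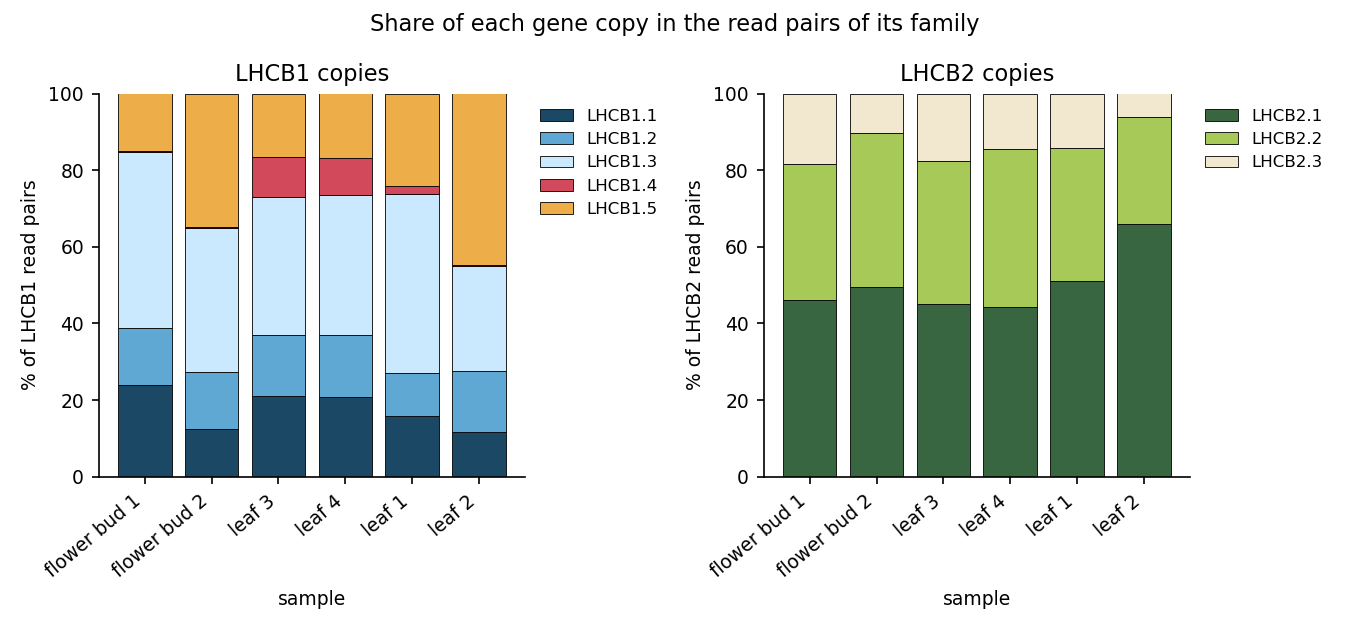
Share of each copy in the read pairs of LHCB1 (left) and LHCB2 (right), in percent, for the 6 samples; each bar sums to the whole family. LHCB1.4 takes 10.4% and 9.46% in leaf 3 and 4 and at most 2.03% elsewhere, and LHCB1.5 ranges from 15.1% in flower bud 1 to 44.8% in leaf 2.

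Flower buds were compared with leaf 1 and 2, which were read on the same sequencer. Of the 9 members, 5 were lower in flower buds at an adjusted p under 0.05 and 0 were higher, by the quasi-likelihood test of edgeR, adjusted over all loci by the Benjamini-Hochberg method. Of all loci tested, 20.9% were lower and 30.5% were higher in flower buds. The 5 genes were LHCB1.2, LHCB1.4, LHCB1.5, LHCB2.1 and LHCB2.2. The median log2 fold change was -2.26 over the members and 0.15 over all loci. At an unadjusted p under 0.05 all 9 were lower and 0 were higher, where 13876 of the 24043 loci tested passed in either direction. DESeq2 called 9 members lower and 0 higher, and of all loci it called 5531 lower and 7336 higher.

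LHCB1.4 averaged 14.9 ± 6.18 CPM in flower buds and 447 ± 566 CPM in leaf 1 and 2 (SD, n = 2 each), a log2 fold change of -4.91 ± 1.28 (SE, edgeR adjusted p = 0.0167). LHCB2.1 averaged 616 ± 180 CPM in flower buds and 3948 ± 3062 CPM in leaf 1 and 2, a log2 fold change of -2.68 ± 0.67 (edgeR adjusted p = 0.0140). The log2 fold changes of LHCB1.2, LHCB1.5 and LHCB2.2 were -1.84 ± 0.54, -2.26 ± 0.68 and -2.33 ± 0.78, with edgeR adjusted p of 0.0259, 0.0288 and 0.0421. The other four did not pass the test: LHCB1.1 had -1.89 ± 0.72, LHCB1.3 had -2.13 ± 0.82, LHCB2.3 had -2.40 ± 0.94 and LHCB3 had -2.08 ± 0.76, with edgeR adjusted p of 0.0548 to 0.0694. These log2 fold changes lay within the range of the 5 genes that passed. With copies summed, LHCB1 stood at -2.11 ± 0.81 and LHCB2 at -2.52 ± 0.76 on the log2 scale.

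**Figure D3:**
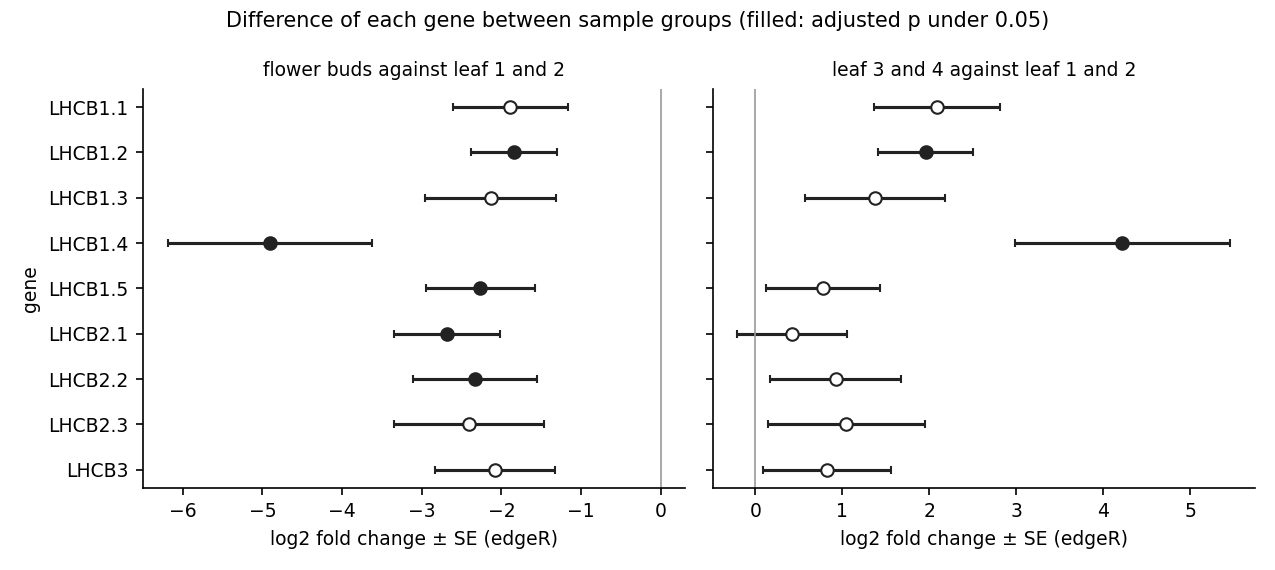
Log2 fold change of each gene with its standard error (horizontal axes), for flower buds against leaf 1 and 2 (left) and leaf 3 and 4 against leaf 1 and 2 (right); filled points have an edgeR adjusted p under 0.05. LHCB1.4 has the largest change in both panels, at -4.91 and 4.22.

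Leaving out 1 sample left its group with a single sample. Fewer of all loci were then called lower in flower buds, and the count of lower members moved. It was 0 without flower bud 1, with 3 at an unadjusted p under 0.05, and 2 without flower bud 2, without leaf 3 or without leaf 4. It was 4 without leaf 1 and 9 without leaf 2. Without leaf 1 the log2 fold changes were -0.58 for LHCB1.1, -0.56 for LHCB1.3, -1.64 for LHCB1.4, -1.54 for LHCB2.1, -0.64 for LHCB2.2 and -0.53 for LHCB3, and that of LHCB2.3 was 0.095. LHCB1.2 and LHCB1.5 had -1.24 and -1.91 there. Without leaf 2 they reached -2.31 (LHCB1.2) to -5.88 (LHCB1.4).

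Leaf 3 and 4 were compared with leaf 1 and 2, a contrast in which the sequencer and the pair of leaf samples cannot be told apart. It shares leaf 1 and 2 with the comparison above. Of the 9 members, 2 were higher in leaf 3 and 4 and 0 were lower (edgeR), against 12.1% higher and 15.2% lower of all loci, and DESeq2 called 3 higher and 0 lower. Of all loci, DESeq2 called 4288 higher and 4423 lower. At an unadjusted p under 0.05 in edgeR, 3 members were higher and 0 lower, where 9851 of the 24043 loci passed in either direction. Of the 19 cell type markers, 4 were also higher and 1 lower in leaf 3 and 4 (edgeR). The guard cell marker KAT1 had 34.8 and 39.6 CPM in leaf 3 and 4 and 14.9 and 15.2 CPM in leaf 1 and 2 (edgeR adjusted p = 0.00812), and the epidermis marker ATML1 had 113 and 107 CPM in leaf 3 and 4 and 61.7 and 43.3 CPM in leaf 1 and 2 (edgeR adjusted p = 0.0274). CYCB1;1 of dividing cells and the flower marker AG were the others that were higher, and the flower marker PI was lower. These rested on low levels. CYCB1;1 had 1.63 and 1.91 CPM in leaf 3 and 4 and 0.374 and 0.173 CPM in leaf 1 and 2. AG had 0.955 and 1.11 CPM in leaf 3 and 4 and 0.155 and 0.287 CPM in leaf 1 and 2. PI had 0.106 and 0.134 CPM (3 and 4 pairs) in leaf 3 and 4 and 0.838 and 0.911 CPM in leaf 1 and 2. The green mesophyll markers RCA, RBCS1A and CA1 did not pass, at log2 fold changes of -0.60, 0.65 and 0.84. The part of the markers in the LHCB results was not tested. LHCB1.4 averaged 8311 ± 326 CPM in leaf 3 and 4 and 447 ± 566 CPM in leaf 1 and 2, a log2 fold change of 4.22 ± 1.24 (edgeR adjusted p = 0.0448). LHCB1.2 averaged 13405 ± 478 CPM in leaf 3 and 4 and 3451 ± 1671 CPM in leaf 1 and 2, a log2 fold change of 1.96 ± 0.54 (edgeR adjusted p = 0.0379). LHCB1.1 had a log2 fold change of 2.09 ± 0.73 and did not pass (edgeR adjusted p = 0.0739).

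The remaining members had log2 fold changes of 0.42 (LHCB2.1) to 1.38 (LHCB1.3) in that contrast, with edgeR adjusted p of 0.243 to 0.661. Leaf 3 and 4 lay above both leaf 1 and 2 for 6 of 9 members, all LHCB1 copies and LHCB2.2. In either direction, they lay apart from leaf 1 and 2 for 24 of 30 other genes of light harvesting and 14 of the 19 markers. The share over all loci was not counted, so the 6 of 9 members have no background to be set against. The median over the members was 1.04, and over all loci it was -0.07. With copies summed the log2 fold change was 1.58 ± 0.79 for LHCB1 and 0.69 ± 0.72 for LHCB2. Single samples moved the count of higher members: 8 were called higher without leaf 1, 3 without leaf 2, 1 without flower bud 1 or flower bud 2, and 0 without leaf 3 or leaf 4, where 2 and 1 had an unadjusted p under 0.05. LHCB1.4 had 7.49 without leaf 1 and 3.32 without leaf 2, and LHCB2.1 had 1.57 without leaf 1 and -0.18 without leaf 2.

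Leaf 1 and leaf 2 carry the same label and differed in every member. All 9 were higher in leaf 1, by 1.56-fold for LHCB1.5 and 2.04-fold for LHCB1.2 up to 10.3-fold for LHCB2.3 and 18.4-fold for LHCB1.4, with a median of 4.85-fold. In leaf 1, 8 of 9 members and 13.0% of all loci tested were over 2-fold higher than in leaf 2. In either direction, 20.3% of all loci tested differed over 2-fold. These are single samples, so the difference has no replicate check. In flower buds the members showed no common direction. There, 3 of 9 were higher in flower bud 1, and the ratio of flower bud 1 to flower bud 2 ran from 0.321 for LHCB1.5 to 1.41 for LHCB1.1. Leaf 3 and 4 differed by 0.949-fold (LHCB1.3) to 1.38-fold (LHCB2.3).

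The clock genes CCA1 and LHY, morning-phased regulators of which CCA1 is known to bind LHCB promoters, also differed between samples with the same label. LHY had 234 and 14.3 CPM in flower bud 1 and 2, 3.64 and 3.92 CPM in leaf 3 and 4, and 338 and 26.9 CPM in leaf 1 and 2. CCA1 had 99.6 and 30.1 CPM in flower buds, 21.8 and 14.7 CPM in leaf 3 and 4, and 404 and 167 CPM in leaf 1 and 2. Both were higher in flower bud 1 than in flower bud 2 and in leaf 1 than in leaf 2, and were lowest in leaf 3 and 4, where the LHCB1 copies were highest. The time of day of sampling is not given in the sources used here, and the part of these differences in the LHCB levels was not tested.

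Repeat sequencing of 1 sample gave nearly the same LHCB levels. The ratio of the HiSeq to the multiplex run lay between 0.963 and 1.05 in all 36 pairs of a member and a sample, and the exact 95% interval of the ratio left out 1 in 8 of them. No member differed between HiSeq and multiplex runs in edgeR (0 of 9, also 0 at an unadjusted p under 0.05), and 0% of 23663 loci did, 3405 having an unadjusted p under 0.05. At an unadjusted p under 0.05 in edgeR, the difference between run types depended on tissue for 2 of 9 members and 2511 of 23663 loci. After adjustment it did so for 1.18% of loci and 0 of 9 members. That count was 8 without flower bud 2, 7 without leaf 1, 8 without leaf 2 and 0 without flower bud 1, in fits with 1 degree of freedom for the spread. The second multiplex library of leaf 1 stood apart more. Library 1b was 1.07-fold (LHCB1.3) to 1.13-fold (LHCB1.5) above the first multiplex library of leaf 1 for LHCB1 copies and 0.975-fold for LHCB3.

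The other genes of light harvesting, 30 in 6 groups, were lower in flower buds in 26 cases and higher in 0 by edgeR, where DESeq2 also called 0 higher. Of all loci, as above, 20.9% were lower, and the median of the 30 genes was -1.97 on the log2 scale. All 6 minor antenna genes were lower, among them LHCB4.2 at -2.58 ± 0.55 (edgeR adjusted p = 0.00765), and all 6 antenna genes of photosystem I, among them LHCA2 at -2.43 ± 0.48. Of the 5 genes for targeting and insertion of antenna proteins 4 were lower, with CPSRP43, a chaperone of the chloroplast signal recognition particle, at -1.81 ± 0.34. All 3 genes of phosphorylation and quenching were lower, with STN7, the kinase that phosphorylates the complex, at -2.48 ± 0.25.

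Among 6 regulators, 4 were lower in flower buds. GLK1 and GLK2, transcription factors known to activate antenna genes, had the largest changes of the list. GLK1 had 17.6 and 36.2 CPM in flower buds against 470 and 436 CPM in leaf 1 and 2, a log2 fold change of -4.07 ± 0.45 (edgeR adjusted p = 0.000574). GLK2 had 20.7 and 21.2 CPM in flower buds against 217 and 198 CPM in leaf 1 and 2, a log2 fold change of -3.30 ± 0.26 (edgeR adjusted p = 0.000209). Unlike the LHCB genes, both were close between leaf 1 and 2. In leaf 3 and 4, where the LHCB1 copies were highest, both lay below leaf 1 and 2. GLK1 had 166 and 234 CPM there and GLK2 had 159 and 135 CPM. Against leaf 1 and 2 their log2 fold changes were -1.18 ± 0.40 and -0.49 ± 0.24. Neither passed (edgeR adjusted p = 0.0675 and 0.169). In the group of chlorophyll b synthesis and breakdown, 3 of the 4 genes were lower by edgeR. They were the synthesis gene CAO at -2.19 ± 0.47, NOL at -0.71 ± 0.23 and SGR1 of chlorophyll breakdown at -1.26 ± 0.24. The 4 genes that did not pass were CPSRP54 at -0.0026 ± 0.24, NYC1 at -0.75 ± 0.38, HY5 at 0.06 ± 0.51 and LHY at -0.55 ± 1.33. The count of 26 was 16 without flower bud 1 and 17 without flower bud 2, leaf 3 or leaf 4.

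In leaf 3 and 4 against leaf 1 and 2, 4 of the 30 were higher and 6 lower (edgeR). Of all loci, as above, 12.1% were higher and 15.2% lower, so these counts lay near the background. The 4 higher genes were all for targeting and insertion of antenna proteins. CPSRP54, the GTPase of the chloroplast signal recognition particle, had 297 and 301 CPM in leaf 3 and 4 and 87.9 and 83.9 CPM in leaf 1 and 2, at a log2 fold change of 1.80 ± 0.25 (edgeR adjusted p = 0.00497). CPSRP43 stood at 1.60 ± 0.34, the receptor CPFTSY at 0.90 ± 0.22 and LTD at 0.87 ± 0.25. The lower genes were LHCB4.3 at -2.48 ± 0.34, LHCB7 at -1.21 ± 0.30, SGR1 of chlorophyll breakdown at -2.36 ± 0.25, STN7 at -0.93 ± 0.24, CCA1 at -3.97 ± 0.71 and LHY at -5.59 ± 1.63. LHCB4.3 and LHCB7 were thus lower in leaf 3 and 4 while LHCB1.2 and LHCB1.4 were higher. The other minor antenna genes did not pass and had positive log2 fold changes. These were 1.09 for LHCB4.1, 0.82 for LHCB4.2, 0.63 for LHCB5 and 1.51 for LHCB6. Without leaf 3 the counts were 0 higher and 1 lower, without leaf 4 they were 0 and 0, without leaf 1 10 were higher, and without leaf 2 2 were higher.

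**Figure D4:**
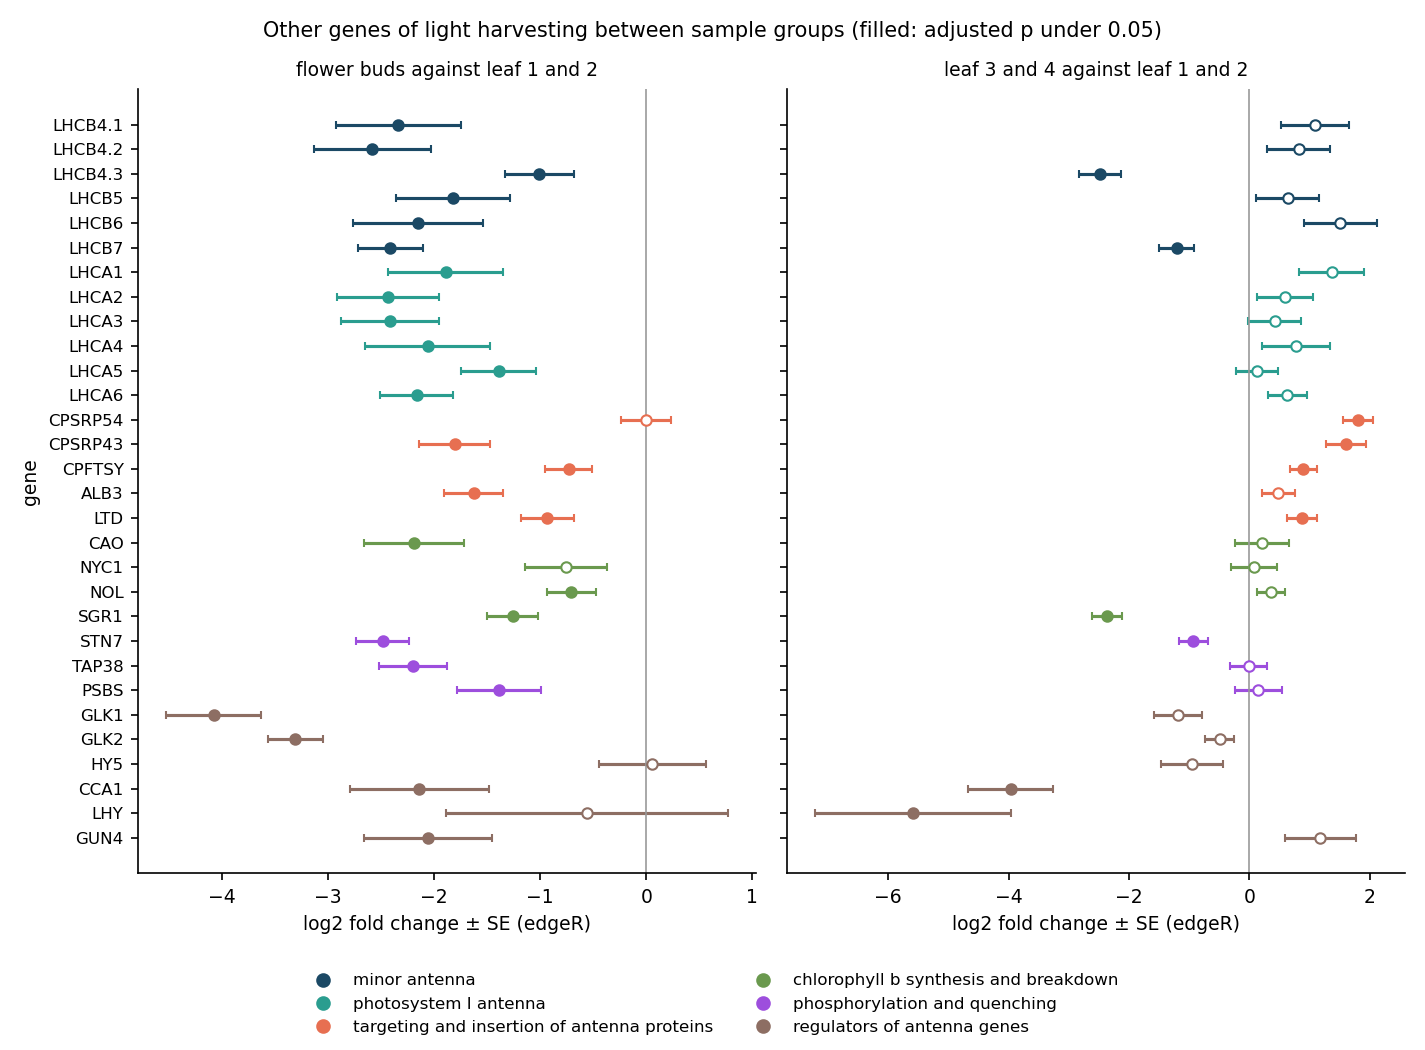
Log2 fold change with standard error of 30 other light-harvesting genes, coloured by group, for flower buds against leaf 1 and 2 (left) and leaf 3 and 4 against leaf 1 and 2 (right); the horizontal scales differ, and filled points have an edgeR adjusted p under 0.05. In flower buds 26 genes are lower, and GLK1 and GLK2 lie farthest from 0.

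The loci whose levels over the 6 samples were most like the mean profile of the 9 members were sought among 1757 others with a mean of at least 100 CPM. Likeness was the root mean square difference of centred log2 CPM, which was 0.242 for LHCB1.3, the closest member, and 2.21 for LHCB1.4, the farthest. The 5 closest other loci were LHCB6, a minor antenna protein, at 0.247, GUN4, a chlorophyll synthesis regulator, at 0.352, PTAC16, a plastid protein, at 0.363, and the photosystem I subunit genes PSAO at 0.442 and PSAE-1 at 0.460. LHCB6 and GUN4 were also among the 30 genes above. LHCB6 had 513 and 721 CPM in flower buds, 7773 and 7815 CPM in leaf 3 and 4, and 4104 and 1365 CPM in leaf 1 and 2. All 5 loci lay nearer to the mean profile than LHCB2.3 at 0.482, LHCB3 at 0.522, LHCB2.1 at 0.561, LHCB1.5 at 0.761 and LHCB1.4.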

How the data were processed

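The authors deposited 1 table of raw counts per library, and per the file headers each row gives a locus, the length counted on, and counts of proper read pairs, of single reads and of pairs within an insert limit (500 in 10 libraries, 1000 in the HiSeq run of leaf 1). Reads were handled with Bowtie2 2.0 per the submitters' processing notes. Counting was done with sam2pkm, per the file headers. The build, the read length, the strand setting and how reads with several matches were counted are not given in the sources that were used, so no coordinates are printed. Of the 28094 locus identifiers 27320 matched TAIR10.1, used for names, gene order and coding sequences.

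Pair counts of the runs of a sample were summed. Tests used edgeR 4.0.16 in R 4.3.3, with TMM factors, filterByExpr at its minimum count of 10, quasi-likelihood F-tests and a threshold of 0.05 after Benjamini-Hochberg adjustment over all loci. One fit of the 6 samples had tissue and sequencer as terms, so leaf 3 and 4 add to the spread but not to the difference between tissues. The run fits had the sample as a block. The standard error is the absolute log2 fold change divided by the square root of F. CPM are pairs per 1000000 of the library size times its TMM factor. Libraries held 34405145 to 192817049 pairs. A count of 0 allows up to 3 pairs, at most 0.0872 per 1000000 counted pairs of a single library before TMM scaling, for counting error only. The fits were tested on simulated data. DESeq2 1.42.0, other scalings and filters, other counts, runs and left-out samples were alternatives.

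All 9 members are named, and of other loci the 5 most alike and genes of the fixed list of 30. The rule for the members uses locus identifiers and no measured value, but the members and lists were chosen with earlier results of these data known. Promoters were not analysed here.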

Additional observations from a re-analysis of the deposited data

Results flagged for a closer look

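Of 20 quantities of the members examined in the 4 leaf samples (9 levels, 8 copy shares and 3 sums), 4 had 1 sample that lay far from the other three by Dixon's test at its 95% critical value, and chance flags about 1 in 20 groups of like samples. The 4 leaf samples were read on different sequencers, leaf 3 and 4 on one and leaf 1 and 2 on the other, which that rate does not allow for. LHCB2.2 stood at 760 CPM in leaf 2, where leaf 3, 4 and 1 had 4145 to 4704 CPM. LHCB3 stood at 1616 CPM in leaf 2, where the other three had 7752 to 8988 CPM. The summed LHCB2 copies stood at 2706 CPM in leaf 2, where the other three had 11127 to 12557 CPM. The share of LHCB1.2 in LHCB1 pairs was 11.1% in leaf 1, where the other three had 15.8% to 16.1%. LHCB2.2 is part of the LHCB2 sum, so those results are not separate observations.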

How the results depend on the processing

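The 5 members lower in flower buds became 8 without the filter on low counts, 9 with DESeq2 and 2 with the HiSeq2000 samples alone, and leaving out 1 sample gave 0 to 9. With the replicate block, flower bud and leaf samples of the HiSeq2000 paired by number, 1 member was lower. The numbers are not stated to pair the samples. The differences of sample 1 from sample 2 in flower buds and in leaves correlated at 0.295 over 19272 loci, a single comparison. No member was higher under any alternative (edgeR and DESeq2, 0 also at an unadjusted p under 0.05). The 26 other genes lower in flower buds became 17 with the HiSeq2000 samples alone and 16 to 24 with 1 sample left out. In leaf 3 and 4 the 2 higher members became 0 to 8 with 1 sample left out. The 4 higher other genes became 2 by library size only, 7 with DESeq2 and 0 to 10 with 1 sample left out, and the 6 lower ones 0 to 7. The 0 members whose run difference depended on tissue became 1 with RLE factors and 0 to 8 with 1 sample left out, where 1 degree of freedom was left for the spread. Of all loci, the 5017 lower in flower buds became 2991 by library size only and 2397 with no sequencer term, and the 7322 higher became 4796 with no sequencer term and 4596 to 7607 with 1 sample left out. In leaf 3 and 4, with 1 sample left out, the 2916 higher loci became 213 to 3644 and the 3652 lower became 261 to 3669.

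The direction turned in few cases. With 1 sample left out, the log2 fold change of LHCB2.3 in flower buds ran from -3.30 to 0.095 and that of LHCB2.1 in leaf 3 and 4 from -0.18 to 1.57. CPSRP54 in flower buds was 0.0087 with RLE factors, 0.24 with upper quartile factors, 0.59 by library size only, 0.0090 with DESeq2, 0.015 with HiSeq runs alone and 0.031 with multiplex runs alone. LHY was 0.15 by library size only and 0.41 with no sequencer term. With 1 sample left out, CPSRP54 ran from -0.16 to 0.075, HY5 from -0.71 to 0.64 and LHY from -3.74 to 2.21. Library size only and upper quartile factors shifted the median of all loci in flower buds by 0.59 and 0.24 on the log2 scale, and library size only shifted it by -0.20 in leaf 3 and 4. The causes were not tested.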
